A study of Mus musculus with 38 samples.

Results

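The genes described here are 9 genes of glutathione synthesis, recycling and use, namely Slc7a11, Gclc, Gclm, Gss, Ggct, Oplah, Gsr, Gpx1 and Gpx4. They were taken by symbol from the 23420 genes counted in each library, and all 9 symbols were found. The cells came from adult male mice of the C57BL/6J strain carrying Arc::dVenus, a reporter in which the promoter of the immediate early gene Arc drives a destabilized fluorescent protein. Mice had been fear conditioned (FC, 12 mice), placed in the same context with tones and without a shock (NS, 4 mice) or left in the home cage (HC, 3 mice), and those of FC and NS were taken 24 h after training. In each mouse the contents of 10 dVenus+ and of 10 neighboring dVenus- granule neurons of the dentate gyrus were aspirated and pooled, which gave 1 library per cell type and mouse and 38 libraries in all. The question was which genes differ between cells in which the reporter was on and their neighbors in the same mouse. Every mouse carried the reporter, so no group without it was compared, and a dVenus+ cell is defined by Arc promoter activity and not by its part in a memory.

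Glutathione is a tripeptide of glutamate, cysteine and glycine and the most abundant low-molecular-weight thiol of cells. Cysteine, which limits its synthesis, enters many cells as cystine, and glutamate-cysteine ligase and glutathione synthetase then join the amino acids in sequence. Peroxidases spend glutathione on peroxides, glutathione reductase restores it, and the gamma-glutamyl cycle returns its parts. Neurons are known to make little glutathione of their own compared with astrocytes and to draw on cysteine that astrocytes supply.

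Reads counted on genes ran from 1352288 to 11151828 in FC dVenus+ and from 3554946 to 18394761 in FC dVenus- libraries, and from 5713182 to 9096451 in those of NS and HC mice. The lowest was the dVenus+ library of mouse 03. All 9 markers of granule cells and excitatory neurons were detected in every group, and their summed normalized level was lower in the dVenus+ library in 11 of 12 FC, 4 of 4 NS and 3 of 3 HC mice. The summed level of 10 microglial markers was higher in the dVenus+ library in 12 of 12 FC mice (42.3 to 2331 against 1.44 to 795 normalized CPM), in 4 of 4 NS mice (69.4 to 1264 against 6.86 to 426) and in 2 of 3 HC mice (304 to 951 against 23.2 to 415). Summed markers of astrocytes (8 genes, 53.1 to 1953 against 185 to 3181 in FC mice) and of interneurons (6 genes, 17.4 to 486 against 33.4 to 2796) were lower in the dVenus+ library in 9 of 12 FC mice each. The part of these markers in the results on the 9 genes was not tested. Arc itself was higher in the dVenus+ library of each mouse, with a log2 fold change of 8.75 for FC mice (SE 0.95, adjusted P = 6.49e-07 in edgeR), 8.75 for NS mice (SE 1.44, adjusted P = 0.00184) and 8.33 for HC mice (SE 1.61, adjusted P = 0.455). In the dVenus- libraries of FC mice 06, 07 and 14, however, Arc had 1276, 1095 and 2549 counts. FC mice carried sample numbers of 3 series and NS and HC mice those of another, so differences in level between FC and the other groups cannot be told apart from these series, whereas both libraries of a mouse belong to the same series.

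Values are given as normalized CPM. Each count was scaled to the library's counts on the genes that passed the count filter of its training group. It was also scaled by TMM within that group, and levels are therefore not scaled between groups. Gpx4 was the most evenly detected of the 9 genes, with at least 10 counts in 38 of 38 libraries. Gpx1 reached 10 counts in 32 libraries, Gclc, Gsr and Ggct in 26 each, Gclm in 25, Gss in 24, Slc7a11 in 19 and Oplah in 12. Oplah had no count in 22 libraries. The median number of the 9 genes with at least 10 counts was 7 in FC dVenus+ and 7.5 in FC dVenus- libraries, 3.5 and 6.5 in NS, and 6 and 4 in HC mice. Over all genes these medians were 8662 and 10089.5 in FC, 7726 and 7500 in NS, and 7652 and 6827 in HC mice. In the dVenus+ library of mouse 05 only 1 of the 9 genes, Gpx4, reached 10 counts.

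Divided by exonic length, the levels spanned a wide range, with the peroxidases at the top. The length was the union of all GENCODE exons of a gene, whereas the reads had been counted on NCBI transcripts. The order depends on these lengths. Gpx1 had 1441 and Gss 5915 exonic bases, and undivided the FC dVenus- mean of Gss, 43.2, was above that of Gpx1, 38.5. Across the 12 FC dVenus- libraries, Gpx4 had 78.4 ± 38.5 (SD, n = 12) normalized CPM per kb and Gpx1 26.7 ± 16.3 (SD, n = 12). Gpx4 was above Gpx1 in 12 of 12 libraries, and Gpx1 above the gene next to it, Gsr, in 9 of 12. The genes in the middle of the order did not differ from their neighbors beyond their spread. These were Gsr at 7.56 ± 9.14, Gss at 7.30 ± 7.39, Gclc at 4.20 ± 4.09, Ggct at 2.61 ± 2.57, Oplah at 1.91 ± 2.09 and Gclm at 1.55 ± 1.96 (SD, n = 12 for each). Slc7a11 was lowest with 0.189 ± 0.310 (SD, n = 12), and Gclm exceeded it in 8 of 12 libraries.

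**Figure D1:**
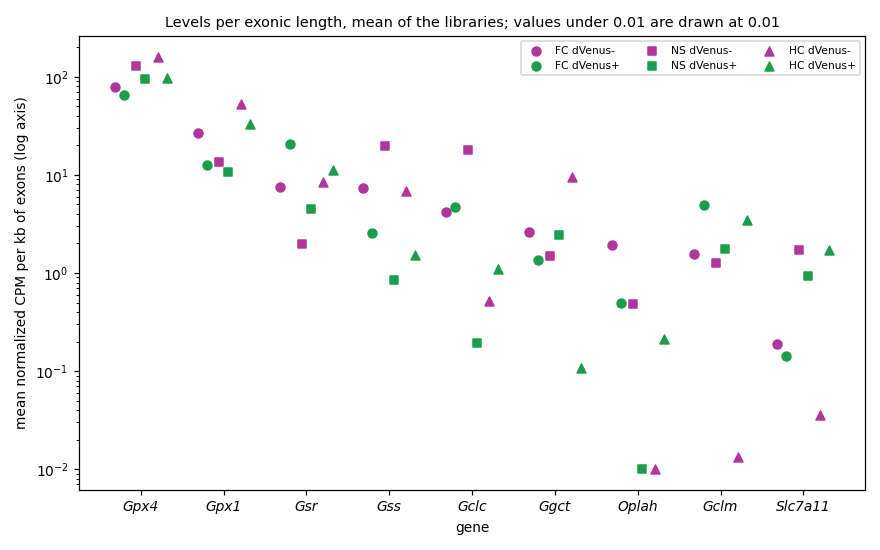
Mean normalized CPM per kb of exons (log axis) of the 9 genes in the 6 groups of libraries, purple for dVenus- and green for dVenus+, with circles for FC, squares for NS and triangles for HC. Gpx4 lies highest in each group, and for Gss, Gpx1 and Gpx4 the green mean lies under the purple one in each training group.

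None of the 9 genes was called different between dVenus+ and dVenus- cells by edgeR's quasi-likelihood test with the mouse as a block, where a call needs a Benjamini-Hochberg adjusted P under 0.05 over all genes tested and an absolute log2 fold change over 1. In FC mice 0 of the 7 genes that passed the count filter were called, beside 4.35% of 9709 genes, and 1 of the 7 had an unadjusted P under 0.05, as did 1724 of the 9709. In NS mice 0 of 8 were called, beside 0.0489% of 8187 genes, with 2 of 8, and 710 of the 8187, under 0.05 unadjusted. In HC mice 0 of 6 were called, beside 0% of 7588 genes, with 1 of 6, and 532 of the 7588, under 0.05 unadjusted. In HC mice edgeR did not call Arc either (log2 fold change 8.33, adjusted P = 0.455). In NS mice it called 4 of the 8187 genes. The lack of a call on a member in these 2 groups therefore carries little information. The median log2 fold change of the tested members was -0.34 for FC mice, -0.48 for NS mice and 0.08 for HC mice, beside -0.11, 0.08 and 0.02 over all genes tested. DESeq2's Wald test on the same counts, the tool of the study, called 3 of the 7 genes tested for FC mice, 2 of 8 for NS mice and 1 of 6 for HC mice, beside 16.8%, 8.13% and 8.24% of all genes tested. The exact sign-flip permutation test of the within-mouse differences called none in any group. With 4 mice its smallest two-sided P is 0.125 and with 3 mice 0.25, so in NS and HC mice it cannot pass the threshold.

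**Figure D2:**
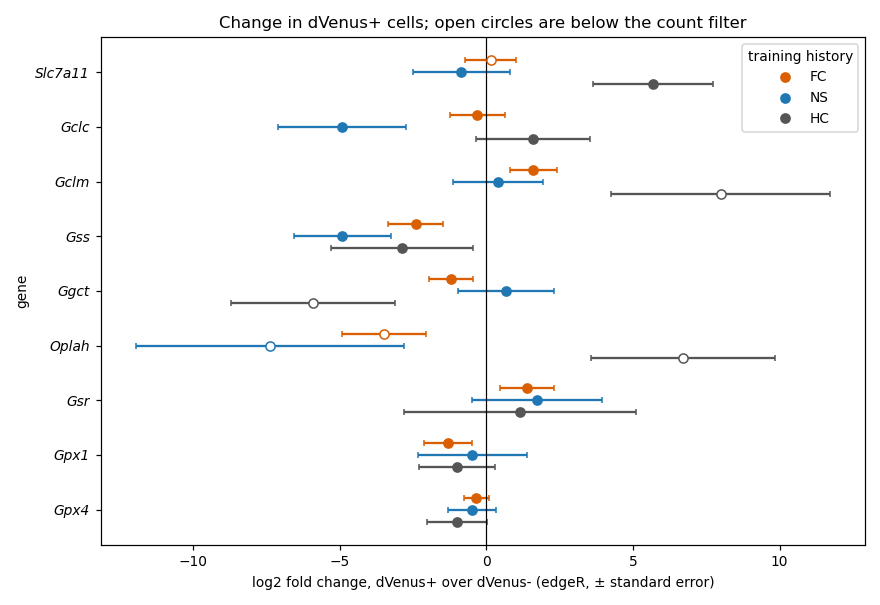
Log2 fold change of each gene in dVenus+ over dVenus- cells (points) with its standard error (bars), from edgeR, in FC (orange), NS (blue) and HC mice (grey). Open circles stand for genes below the count filter of that group, taken from the fit without it. Gss, Gpx1 and Gpx4 lie below 0 in each of the 3 training groups, and Slc7a11 lies near 0 in FC and NS but at 5.68 in HC mice.

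Slc7a11 encodes xCT, the light chain of the transporter that brings in cystine in exchange for glutamate. It was barely detected in FC mice, with 0.287 to 9.58 normalized CPM (median 0.943) in dVenus+ and 0 to 12.9 (median 0.604) in dVenus- libraries. In HC mice it stood at 29.1, 15.1 and 27.3 in the dVenus+ libraries of mice 15, 16 and 17, and at 0.191, 0.333 and 0.957 in their dVenus- libraries. The HC groups did not overlap, which in this direction held for 8.51% of the genes tested in HC mice. In HC mice its log2 fold change was 5.68 (SE 2.05), which was not called by edgeR (adjusted P = 0.677), while DESeq2 called it at 5.73 (adjusted P = 0.0202), among 4.63% of genes called in that direction. In the same 3 mice the summed level of 8 astrocyte markers was also higher in the dVenus+ libraries (1157 to 1396 against 512 to 698 normalized CPM), with Aldh1l1 at 0 in the dVenus- libraries, and its part in the difference was not tested.

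NS mice showed no such separation for Slc7a11. Their dVenus+ libraries held 24.03, 23.9, 1.60 and 2.29 normalized CPM in mice 18 to 21, and their dVenus- libraries 51.0, 18.6, 25.1 and 0.205. Slc7a11 was higher in dVenus+ cells in 2 mice and lower in 2, with a log2 fold change of -0.85 (SE 1.66, adjusted P = 0.905). In FC mice it was below the count filter, with 8 mice higher and 4 lower and a log2 fold change of 0.15 (SE 0.87) in the fit without the filter. The sequence before the Slc7a11 start site is shown because it holds 2 matches to TGATGCAA, a composite element known to be bound by C/EBP and ATF family proteins, 1 on each strand. The window is chr3:50443564-50443863 on the minus strand of GRCm38.p6, from 250 bases before to 50 after the start in RefSeq. Capitals mark the matches. Their leftmost bases as printed lie at -66 for the match on the strand of the gene and at -47 for that on the other strand.
Slc7a11: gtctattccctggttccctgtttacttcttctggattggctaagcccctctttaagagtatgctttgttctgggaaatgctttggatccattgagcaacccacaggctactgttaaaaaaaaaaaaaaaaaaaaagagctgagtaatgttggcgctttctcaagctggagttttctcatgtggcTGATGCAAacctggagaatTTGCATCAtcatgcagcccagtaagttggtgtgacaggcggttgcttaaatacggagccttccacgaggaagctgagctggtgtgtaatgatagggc

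At least 1 match to TGATGCAA on either strand was held by 0.895% of 32851 promoter windows of this length. The other motifs searched on both strands were TGACGTCA, the cyclic AMP response element, held by 1.79%, and TGACNNNGC, the core of the antioxidant response element, held by 12.4%. A match is a description of the letters only.

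Gclc and Gclm encode the catalytic and the modifier subunit of glutamate-cysteine ligase, the enzyme of the rate-limiting step. Both reached 10 counts in 22 of 38 libraries, Gclc alone in 4, Gclm alone in 3 and neither in 9. In FC mice Gclm had 0 to 142 normalized CPM (median 15.53) in dVenus+ and 0 to 43.8 (median 7.73) in dVenus- libraries. Gclm was higher in dVenus+ cells of 9 of the 12 mice, although the groups overlapped. Its log2 fold change was 1.61 (SE 0.82, adjusted P = 0.302 in edgeR). DESeq2 called Gclm higher at 2.45 (adjusted P = 0.0264), among 5.71% of genes called in that direction.

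For HC mice the counts of Gclm were very unequal, with 227, 51 and 1 in the dVenus+ and 0, 1 and 1 in the dVenus- libraries of mice 15, 16 and 17. The signal therefore came from mice 15 and 16, and mouse 17 had 1 count in each library. Summed over the 3 mice, 279 against 2 counts gave a ratio of 167 in CPM (95% exact interval 45.8 to 1387). Without mouse 15, which held most of these counts, 52 against 2 counts gave 28.6 (7.54 to 243). Amplified reads without molecular identifiers are not independent molecules, so such intervals, and the floors used for Oplah, cover counting error only and not the spread between mice. Gclm was below the count filter in HC mice, and the fit without the filter gave 8.00 (SE 3.74, adjusted P = 0.533). The NS mice had 32.4, 1.95, 9.26 and 0.832 normalized CPM in dVenus+ and 17.9, 0.605, 2.29 and 11.3 in dVenus- libraries, so that it was higher in 3 of 4 mice with a log2 fold change of 0.39 (SE 1.54, adjusted P = 0.960). The Gclm window is shown because its HC counts lay almost wholly in dVenus+ libraries. It lies at chr3:122245307-122245606 on the plus strand of GRCm38.p6, and capitals mark its match to TGACNNNGC. The match reads on the strand opposite to the gene, and its leftmost base as printed lies at -134. The Ggct window held 2 matches to this motif and is not shown. Counted in the same way, they lie at -174 on the strand opposite to the gene and at 5 on its own.
Gclm: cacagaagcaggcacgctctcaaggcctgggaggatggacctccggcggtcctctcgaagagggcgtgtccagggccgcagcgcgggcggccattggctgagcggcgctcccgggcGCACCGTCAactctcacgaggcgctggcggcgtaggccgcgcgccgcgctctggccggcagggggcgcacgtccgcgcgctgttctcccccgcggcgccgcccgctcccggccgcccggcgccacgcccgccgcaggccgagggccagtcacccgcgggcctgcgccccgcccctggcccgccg

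Gclc, the catalytic subunit, was lower in dVenus+ than in dVenus- cells in each of the 4 NS mice. The dVenus+ libraries of mice 18 to 21 held 2.95, 0, 0 and 0 normalized CPM and the dVenus- libraries 3.31, 219, 41.3 and 6.41. All dVenus+ values lay below all dVenus- values, as for 2.86% of the genes tested in NS mice, but in mouse 18 the values of 2.95 and 3.31 were close. The log2 fold change was -4.93 (SE 2.19, adjusted P = 0.553 in edgeR), and DESeq2 called Gclc lower at -8.45 (adjusted P = 0.000342), among 3.91% of genes called in that direction. The value ran from -12.37 without mouse 18 to -3.23 without mouse 19, with no call in edgeR. No separation was seen in FC mice, where Gclc had 0 to 100.3 (median 3.11) in dVenus+ and 0 to 48.6 (median 16.5) in dVenus- libraries. There it was higher in 7 mice and lower in 5, with a log2 fold change of -0.30 (SE 0.93, adjusted P = 0.913), a sign that turned under 4 of the other settings and without mouse 07 or 11. In HC mice the dVenus+ libraries held 7.91, 3.44 and 0.963 and the dVenus- libraries 0, 0 and 5.83, with a log2 fold change of 1.59 (SE 1.95, adjusted P = 0.830).

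Gss encodes glutathione synthetase, which adds glycine to complete the tripeptide. It had the smallest adjusted P of the 9 genes in FC mice. Its log2 fold change was below 0 in each training group, as were those of Gpx1 and Gpx4. In FC mice Gss had 0 to 105 normalized CPM (median 4.28) in dVenus+ and 0.694 to 133 (median 31.6) in dVenus- libraries. No count was seen in 4 of 12 dVenus+ libraries, those of mice 01, 03, 07 and 14, and in none of the dVenus- libraries. These 4 libraries had 8375, 7068, 7066 and 5935 genes of any kind with at least 10 counts. The dVenus- libraries of the same mice had 11189, 9291, 10568 and 11014. The part of this in the level of Gss was not tested. Gss was lower in the dVenus+ library of 9 of 12 mice, the exceptions being mice 04, 11 and 12.

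The log2 fold change of Gss in FC mice was -2.40 (SE 0.94), which was not called by edgeR (adjusted P = 0.150), whereas DESeq2 called it at -3.51 (adjusted P = 0.000706), among 11.1% of genes called in that direction. Within the sample series of 6 FC mice it was -1.59 (SE 1.05, adjusted P = 0.634) and within that of 4 mice -3.13 (SE 1.99, adjusted P = 0.567). In the remaining series, mice 01 and 03 had 0 and 0 in dVenus+ against 35.7 and 1.27 in dVenus- libraries. Without mice 06, 07 and 14, whose dVenus- libraries held Arc counts, the value was -1.74 (SE 1.04, adjusted P = 0.477).

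In NS mice Gss was lower in dVenus+ cells of 3 of 4 mice. The dVenus+ libraries of mice 18 to 21 held 19.0, 0.244, 0.712 and 0 normalized CPM and the dVenus- libraries 387, 0.151, 23.7 and 55.6. Mouse 19 had 1 count in each library and so carried no information on direction. The log2 fold change was -4.91 (SE 1.66, adjusted P = 0.481 in edgeR), and DESeq2 called it at -4.80 (adjusted P = 0.0118). In HC mice the dVenus+ libraries held 26.9, 0 and 0 and the dVenus- libraries 81.4, 41.2 and 0, with a log2 fold change of -2.88 (SE 2.41, adjusted P = 0.773). Gss lies at chr2:155563181-155592810 on the minus strand of GRCm38 and overlaps Acss2 and the antisense genes Gssos1 and Gssos2 on the other strand. The libraries do not mark strand, so a read on an exon shared by both genes cannot be assigned by strand. The counts hold a separate entry for reads that fit more than 1 gene, which was left out here. Whether exons are shared was not examined. Gclm, Gsr and Slc7a11 also overlap other annotated genes. Its promoter window held none of the 3 motifs.

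Ggct and Oplah act in the gamma-glutamyl cycle, in which Ggct releases 5-oxoproline from gamma-glutamyl amino acids and Oplah opens 5-oxoproline to glutamate. In FC mice Ggct had 0 to 45.5 normalized CPM (median 4.91) in dVenus+ and 2.28 to 72.3 (median 10.5) in dVenus- libraries, and it was lower in 9 of 12 mice. Its log2 fold change was -1.21 (SE 0.75, adjusted P = 0.417 in edgeR), and DESeq2 called it at -2.03 (adjusted P = 0.0473). NS mice pointed the other way, with 28.5, 32.5, 13.9 and 0 in dVenus+ and 0.413, 24.2, 7.21 and 14.5 in dVenus- libraries and a log2 fold change of 0.68 (SE 1.65, adjusted P = 0.925). For HC mice Ggct was below the count filter, at 1.28, 0.688 and 0.535 in dVenus+ and 0, 133 and 87.0 in dVenus- libraries. Mice 16 and 17 thus held nearly all of its signal, in dVenus- cells, and mouse 15 had none there.

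Oplah was the gene most often at 0 and passed the count filter in no training group. In FC mice only mice 09 and 10 had 10 or more counts in their dVenus+ libraries, at 20.7 and 13.5 normalized CPM, against 7 of the 12 dVenus- libraries, which ran from 0 to 34.9 (median 10.7). It was lower in 6, higher in 3 and tied at 0 in 3 mice. The log2 fold change in the fit without the filter was -3.50 (SE 1.43, adjusted P = 0.259). In NS mice 0 counts in dVenus+ stood against 132 counts in dVenus- libraries, all from mice 19 and 20, so Oplah was at least 34.8-fold lower in these pooled reads, taking 3 counts over the group as the floor. Without mouse 20 this bound was 6.70, and the fit across mice gave -7.38 (SE 4.58, adjusted P = 0.696). In HC mice 18 counts, 17 of them in mouse 15, stood against 0, a bound of at least 7.19-fold higher in dVenus+ that rests on this mouse. Without it 1 count stood against 0, for which no fold can be given, and the fit across mice gave 6.71 (SE 3.13, adjusted P = 0.533). Oplah shares sequence positions with Smpd5 and Exosc4 on the other strand.

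Gsr encodes glutathione reductase, which restores glutathione from its oxidized form with NADPH. In FC mice it had 0 to 301 normalized CPM (median 20.8) in dVenus+ and 0.240 to 85.4 (median 12.2) in dVenus- libraries. The groups overlapped, and 7 mice were higher and 5 lower in dVenus+ cells. Gsr had a log2 fold change of 1.39 there (SE 0.92, adjusted P = 0.458). In NS mice the dVenus+ libraries held 40.3, 0, 0 and 9.56 and the dVenus- libraries 0, 1.51, 20.1 and 0, with a log2 fold change of 1.72 (SE 2.22, adjusted P = 0.844). For HC mice the values were 0, 80.9 and 11.4 against 0, 0.50 and 69.1, with a log2 fold change of 1.15 (SE 3.97, adjusted P = 0.952). Within a mouse Gsr was often present in 1 library and nearly absent from the other, in both directions.

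Gpx1 and Gpx4 are selenoproteins. Gpx1 reduces hydrogen peroxide in the cytosol and mitochondria, and Gpx4 reduces lipid peroxides in membranes and is the enzyme whose loss leads to ferroptosis. In FC mice Gpx1 had 0 to 56.0 normalized CPM (median 13.5) in dVenus+ and 0.760 to 70.03 (median 42.6) in dVenus- libraries, was at 0 in the dVenus+ libraries of mice 01, 05 and 07 and was lower in 9 of 12 mice. Its log2 fold change was -1.30 (SE 0.82, adjusted P = 0.432). It was also lower in 3 of 3 HC mice, at 41.9, 94.6 and 7.92 in dVenus+ against 55.4, 141 and 34.3 in dVenus- libraries, with a log2 fold change of -0.996 (SE 1.31, adjusted P = 0.845). NS mice were divided, with 14.0, 0, 0 and 48.0 against 2.62, 1.97, 40.5 and 32.8 and a log2 fold change of -0.48 (SE 1.85, adjusted P = 0.958).

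Gpx4 had the smallest standard error of the 9 genes in each training group. In FC mice it had 21.1 to 221 normalized CPM (median 89.9) in dVenus+ and 23.6 to 226 (median 144) in dVenus- libraries, with 8 of 12 mice lower. Its log2 fold change was -0.34 (SE 0.43, adjusted P = 0.755). TMM rescaled some libraries strongly. In mouse 14 Gpx4 had 627 of 8012131 counts in the dVenus+ and 1619 of 9241471 in the dVenus- library. After scaling these were 209 and 123 normalized CPM, so the direction in this mouse depends on the scaling. The NS libraries held 109.9, 117, 246 and 183 in dVenus+ and 314, 198, 201 and 180 in dVenus- cells, with a log2 fold change of -0.48 (SE 0.81, adjusted P = 0.887). In HC mice the values were 26.1, 230.2 and 248 against 129, 509 and 192, with a log2 fold change of -1.01 (SE 1.02, adjusted P = 0.791). The estimates were thus below 0 in each training group and smaller than their standard error.

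**Figure D3:**
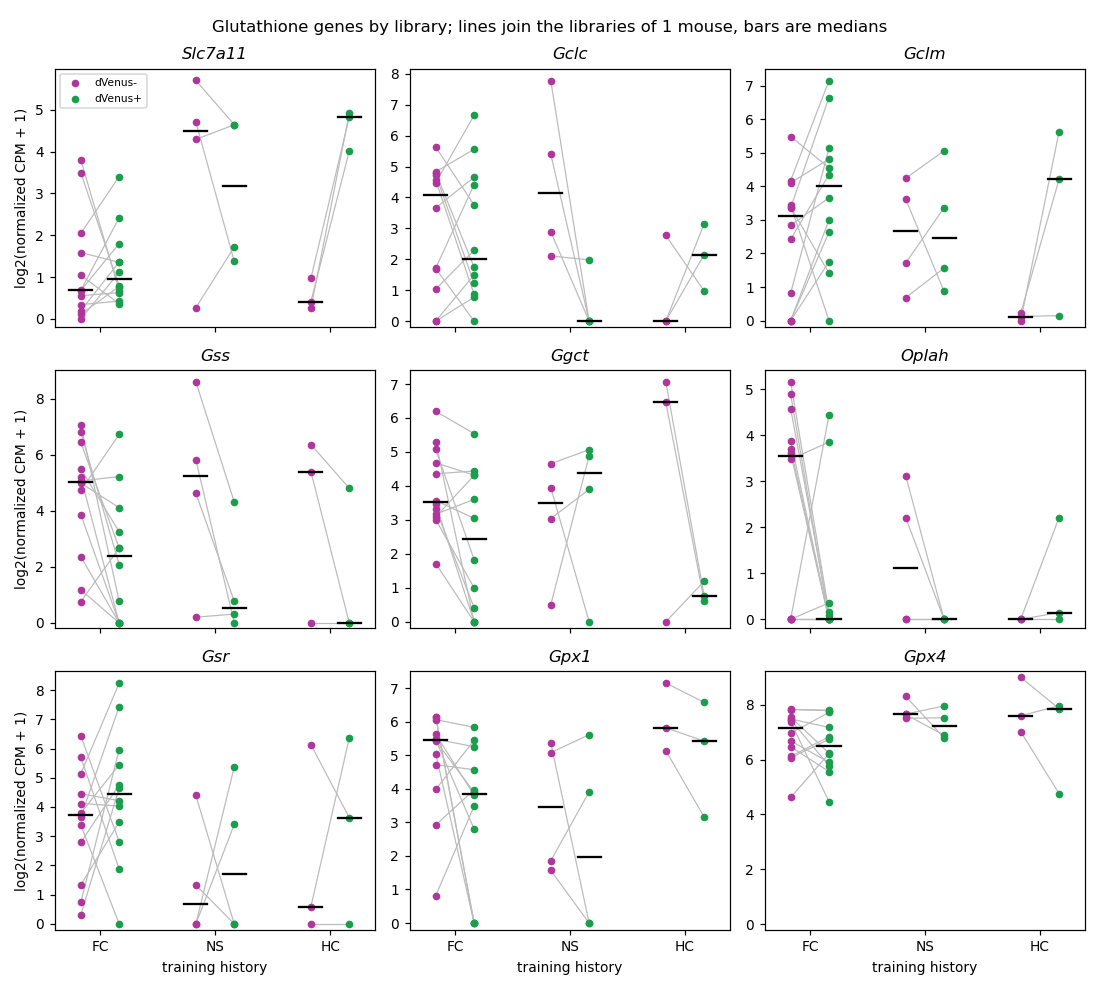
Levels of the 9 genes as log2(normalized CPM + 1) in all 38 libraries, by training history on the horizontal axis, with purple points for dVenus-, green points for dVenus+, grey lines joining the libraries of 1 mouse and black bars for medians. The 3 HC dVenus+ libraries lie above the 3 dVenus- libraries for Slc7a11, the 4 NS dVenus+ libraries lie below the 4 dVenus- libraries for Gclc, and the groups overlap in most other panels.

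No mouse had all 9 genes on the same side, since each of the 19 had at least 1 gene higher and 1 gene lower in its dVenus+ library. Among the 12 FC mice the SD of the within-mouse difference of log2(normalized CPM + 1) lay between 1.25 for Gpx4 and 3.17 for Gsr. In mouse 05 the dVenus+ library was poor in genes of any kind. It had 4830 genes with at least 10 counts, against 8765 in the dVenus- library. Gss, Gpx1 and Oplah were all far lower in dVenus+ cells of this mouse. For Gss the differences ran from -6.29 to 2.00 in FC, from -5.82 to 0.11 in NS and from -5.40 to 0 in HC mice.

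**Figure D4:**
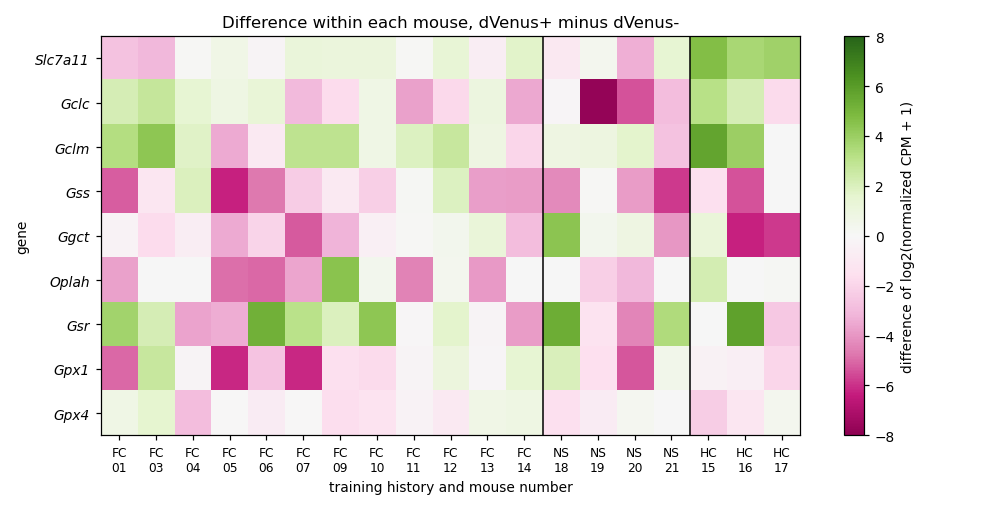
Difference of log2(normalized CPM + 1) between the dVenus+ and the dVenus- library of each of the 19 mice (columns) for the 9 genes (rows), green where dVenus+ is higher and pink where it is lower. The Slc7a11 row is green in the 3 HC mice, and the Gss row is pink in 9 of 12 FC and 3 of 4 NS mice.

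An interaction term, fitted over the 38 libraries together, asked whether the change differs between training histories. No member was called in FC against NS or in FC against HC mice, beside 0% of 14075 genes in each, while 1 and 2 of the 9 had an unadjusted P under 0.05, as did 1152 and 1304 of all genes tested. The changes of Slc7a11 in FC and HC mice differed by -5.67 on the log2 scale (SE 1.84, adjusted P = 0.399), and those of Gclm by -6.85 (SE 3.01, adjusted P = 0.487). Gclc differed between FC and NS mice by 4.65 (SE 2.27, adjusted P = 0.606). For Gss the differences were 2.56 (SE 1.88, adjusted P = 0.745) between FC and NS and 0.26 (SE 2.08, adjusted P = 1) between FC and HC mice.

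Of 79 other genes of glutathione and redox metabolism, 51 were tested in FC mice and 1 was called, beside 4.35% of all genes tested, or 1.5% called higher. This was Srxn1, which encodes sulfiredoxin, the enzyme that restores overoxidized peroxiredoxins. Its dVenus+ libraries in FC mice held 2.83 to 610.3 normalized CPM (median 245) and its dVenus- libraries 0 to 75.9 (median 25.6). Srxn1 was higher in 11 of 12 FC mice, the exception being mouse 05, and the other 11 dVenus+ libraries, at 189.9 and above, all lay above the highest dVenus- library. The log2 fold change was 3.25 (SE 0.66, adjusted P = 0.00437 in edgeR). The call was lost with the exact sign-flip permutation test (3.25, adjusted P = 0.0610), with the older quasi-likelihood method of edgeR (3.29, adjusted P = 0.0681) and within the series of 6 mice (3.39, adjusted P = 0.140) or of 4 mice (2.74, adjusted P = 0.423). In NS mice Srxn1 was higher in 3 of 4 (log2 fold change 3.11, SE 1.79, adjusted P = 0.615) and in HC mice in 2 of 3 (1.87, SE 2.12, adjusted P = 0.815). The HC value was 0.055 without mouse 15, 4.13 without mouse 16 and 0.029 without the mouse as a block.

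The remaining 14 tested genes of the thioredoxin, glutaredoxin and peroxiredoxin list were not called, and the median of the 15 was -0.26. Of 8 tested glutathione transferases, the enzymes that conjugate glutathione to other molecules, 0 were called and 7 had a log2 fold change below 0, with a median of -1.31. In NS mice 5 of 6 and in HC mice 7 of 8 transferases tested were below 0, with medians of -2.71 and -2.75 and no calls. Gstm5 and Gstm1, those with the highest level, stood at -0.11 (SE 0.53) and -0.43 (SE 0.69) in FC mice. Chosen after their values were seen, Mgst3 was at -2.67 (SE 0.90, adjusted P = 0.0854) and Gstm7 at -1.99 (SE 0.67, adjusted P = 0.0887) in FC mice, and at -8.23 (SE 2.71, adjusted P = 0.436) and -6.88 (SE 2.01, adjusted P = 0.357) in NS mice.

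Among 6 tested regulators and targets of NRF2, the transcription factor of the antioxidant response, 0 were called in FC mice and 4 had a log2 fold change above 0, with a median of 1.41. The list mixes regulators with targets, so its median is not a measure of NRF2 activity. Sqstm1, a target that also binds KEAP1, was at 0.98 (SE 0.31, adjusted P = 0.0621) and Nfe2l1, a related factor, at -0.05 (SE 0.67). Mafg, a small MAF partner, at 2.43 (SE 0.73, adjusted P = 0.0514) and Hmox1, heme oxygenase 1, at 3.45 (SE 1.10, adjusted P = 0.0670) were picked after their values were seen. Bach1 at 1.83 (SE 1.05, adjusted P = 0.382) and Keap1 at -1.42 (SE 0.70, adjusted P = 0.283) were also named after their values were seen. The target Nqo1 was not tested and had no count in 11 of 12 FC libraries of each cell type. In HC mice 4 of the 5 tested genes of this list were below 0, with a median of -1.39, and Hmox1 was at 3.16 (SE 2.66, adjusted P = 0.775). Of 7 genes of cysteine supply and the gamma-glutamyl cycle none was called, and Ggt7, a member of the gamma-glutamyltransferase family, stood at -0.37 (SE 0.58).

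The list of superoxide, peroxide and NADPH enzymes had 8 genes tested and 0 called, with Sod1, cytosolic superoxide dismutase, at 0.85 (SE 0.32, adjusted P = 0.132) and Sod2, its mitochondrial counterpart, at 0.28 (SE 0.56). Of 7 genes of selenocysteine insertion, which Gpx1 and Gpx4 need, 0 were called, with Sephs2 at 0.45 (SE 0.61) and Eefsec at -0.92 (SE 0.97). None of the 6 other glutathione peroxidases passed the filter, and the highest of them, Gpx7 and Gpx3, had a median of 0 in FC libraries of each cell type. Over the 7 lists, 13 of 51 genes tested in FC mice had an unadjusted P under 0.05, beside 1724 of 9709 genes, with 4 of 38 in NS and 2 of 44 in HC mice. No gene of these lists was called in NS or HC mice by edgeR. DESeq2 called 5 of them higher and 4 lower for FC mice, 2 higher and 3 lower for NS mice and 1 higher and 3 lower for HC mice. Over all genes tested it called 5.71% higher and 11.1% lower for FC mice, 4.23% and 3.91% for NS mice, and 4.63% and 3.61% for HC mice.

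**Figure D5:**
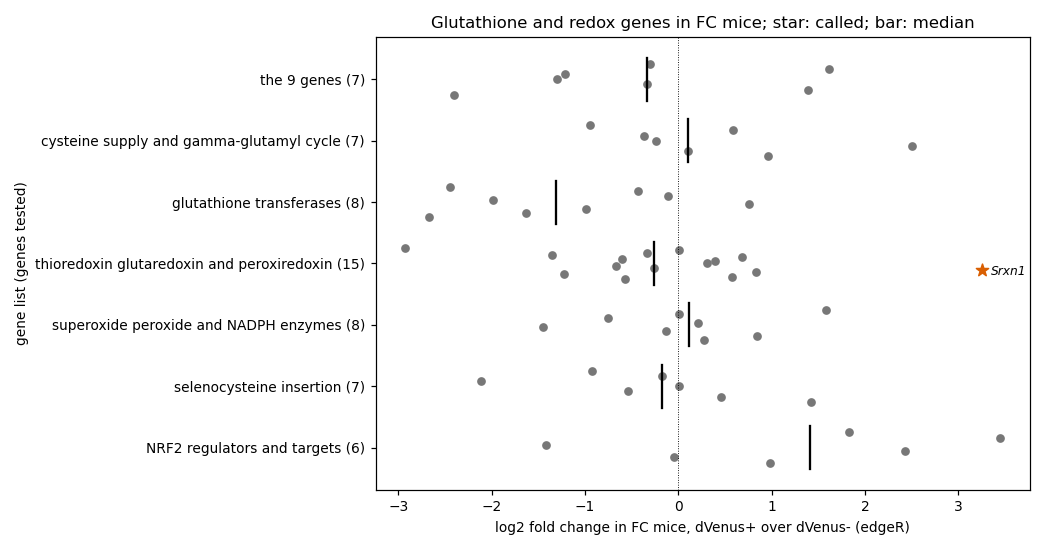
Log2 fold change in dVenus+ over dVenus- cells of FC mice (edgeR, horizontal axis) for the tested members among the 9 genes and for 6 lists of related genes, with 1 point per gene, a black bar for the median of each list and a star for the called gene. Srxn1 carries the star at 3.25, and the medians run from -1.31 for the transferases to 1.41 for the NRF2 list.

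The genes whose level was most like that of Gss over the 24 FC libraries were Megf9 (Spearman's rho 0.775), Slc38a10 (0.766), Kcnj3 (0.758), Taf1b (0.757) and Ermp1 (0.752). The correlations are descriptions over libraries that share mice and differ in depth. In dVenus+ cells of FC mice these genes had log2 fold changes from -1.93 for Megf9 to -0.66 for Slc38a10, and none of the 5 was called.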

How the data were processed

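Polyadenylated RNA of pooled cells had been amplified with Smart-seq2 and sequenced as single reads without strand or molecular identifiers. The authors aligned the reads to mm10 with TopHat2 2.0.13 and deposited, per library, counts of uniquely aligned reads on NCBI transcripts made with HTSeq 0.6.0, not normalized. The 5 entries that name no gene were left out, of which reads outside genes came to 16.4% to 59.7% of uniquely aligned reads. A deposited table of all libraries was not used here. Groups came from the titles, as the description labels of 10 NS and HC samples name another library.

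A gene was tested where 10 counts were reached in no fewer than 12 (FC), 4 (NS) or 3 (HC) libraries, or 3 of 38 for the interactions. Tests were run with edgeR 4.0.16 in R 4.3.3 (TMM, mouse as block, glmQLFit with legacy = FALSE, two-sided). Its older method, which is the default of this version, was run as an alternative, and the choice between them was made after both counts of calls in FC mice, 422 and 137, were seen. DESeq2 1.42.0 served as another alternative. Both libraries of a pair come from 1 mouse, which is why they were paired. As a check, the correlation of their deviations from the group means had a median of 0.0382 for FC mice, -0.0167 for NS mice and 0.0283 for HC mice. P-values measure the spread between mice of 1 line.

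Positions are from GENCODE vM21 on GRCm38 and promoter windows from RefSeq GRCm38.p6, where 6 of the 9 genes were found. Windows of Gclc, Gsr and Oplah were not used here. The genes named are the 9 members, Arc, every called gene of a list or else its 2 highest, and the 5 genes most like the member with the smallest adjusted P. Mgst3, Gstm7, Mafg, Hmox1, Bach1, Keap1 and Nqo1 were named outside this rule, after their values were seen. Of the genes this rule names, 1 is not reported here. The members and lists were chosen with earlier results of these data known.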

Additional observations from a re-analysis of the deposited data

Results flagged for a closer look

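Dixon's test at 95% was run on 17 groups of 4 libraries in NS mice. In 5 of them a library had a gap to the nearest of the others that was large against the range of the group. The nominal rate of this test, about 1 in 20, holds for normally distributed values. These values are skewed with many at 0, so the 5 groups cannot be set against that rate. Mouse 18 was the high library for Gss in both cell types, with 387 normalized CPM in dVenus- and 19.0 in dVenus+ cells. It was also the high library for Gpx4 in dVenus- cells at 314 and for Gclc in dVenus+ cells at 2.95, where the other 3 were at 0. Mouse 20 stood out for Gsr in dVenus- cells at 20.1. Without mouse 18 Gsr in NS mice changed sign to -0.55 (adjusted P = 0.971).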

How the results depend on the processing

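Over all settings run, edgeR and the exact sign-flip test called 0 of the 9 genes in each training group and in both interactions, and only DESeq2's Wald test made calls, 1 higher and 2 lower for FC mice, 2 lower for NS mice and 1 higher for HC mice. Among the related genes, where 1 was higher and 0 lower for FC mice, DESeq2's size factors, no count filter and no replicate block gave 2 higher, the older quasi-likelihood method and the series of 6 or of 4 mice gave 0, and DESeq2's Wald test gave 5 higher and 4 lower for FC mice, 2 and 3 for NS mice and 1 and 3 for HC mice. Leaving out each FC mouse gave 1 to 2 higher and 0 to 1 lower. The pairing by mouse changed no call on the 9 genes. In NS and HC mice edgeR called few genes of any kind or none, so the lack of calls there says little about the 9 genes.

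The sign of Gclc in FC mice turned with DESeq2 (0.14), no replicate block (0.27), the older method (0.12) and without mice 06, 07 and 14 (0.27), and it ran from -0.69 to 0.15 when single mice were left out. Leaving out single mice also turned values in NS mice, for Gclm (-0.34 to 1.35), Gsr (-0.55 to 4.76), Ggct (-0.27 to 1.64), Gpx1 (-1.61 to 0.70) and Slc7a11 (-1.26 to 0.037), and in HC mice for Gclc (-0.73 to 8.55) and Gsr (-2.57 to 1.07). Interactions of FC minus NS turned for Gsr with no replicate block (0.21) and for Gpx1 with the older method (0.63), as did that of FC minus HC for Gsr with the older method (-0.11). The cause was not tested.

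Gss in FC mice stayed below 0, between -3.61 and -1.45 over the other settings and between -2.94 and -2.04 without single mice. Slc7a11 in HC mice stayed between 4.04 and 5.77, and between 4.99 and 6.45 without single mice. Of 414 alternative values for 42 results, 388 kept their direction and their side of the threshold, 16 turned, 6 newly passed the threshold and 4 no longer did. Among these results only Srxn1 in FC mice was called in the main fit. For the others an uncalled value of the same sign counted as kept, so the 388 is no measure of robustness. Genes called over all those tested in FC mice numbered 422, and 1635 with DESeq2, 137 with the older method, 277 without mice 03 and 05, 154 without mice 06, 07 and 14, and 15 or 12 within the series of 6 or 4 mice. In NS mice they numbered 4, and from 0 to 13 over the other settings but 666 with DESeq2. For HC mice they numbered 0, and from 0 to 2 but 625 with DESeq2. Most members had low counts and a wide spread between mice, and the part of these in the lack of calls was not tested. Pools of 10 cells give 1 value per mouse and cell type. The older method, and the bounds and summed ratio without single mice, were added as alternatives after the data were seen.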
